A study of Rattus norvegicus with 9 samples.

Results

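The genes described here handle organic osmolytes and urea in the renal medulla, and they were followed in rat kidneys that were either not perfused or perfused in the cold with mesenchymal stromal cells (MSC). They are Nfat5, Slc6a12, Slc5a3, Akr1b1, Slc14a1 and Slc14a2, and every gene probe of the array that carried 1 of these 6 names was taken. This gave 8 probes of the 30367 gene probes on the array. A total of 6 of the 8 probes, from 5 of the 6 genes, were bright enough to be tested, beside 15836 such probes in all.

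In both groups the kidneys came from F344 Fisher rats and had 20 min of warm ischaemia as a model of donation after circulatory death. The 5 NP kidneys were not perfused. The 4 MSC kidneys were perfused for 4 hrs at 4°C with Belzer solution (BS) to which 3000000 MSC had been added, and these cells came from the bone marrow of Sprague Dawley rats that carry an EGFP transgene. Total RNA of renal tissue was labelled with Cy3 and hybridised to a 1-colour Agilent array, with 1 array for each kidney. The titles of the NP samples name a 4 hrs BS perfusion, whereas their treatment field says that they were not perfused, and the second was followed here. The NP and MSC kidneys therefore differ by the perfusion as well as by the cells, and these cannot be told apart. The labels name renal tissue without saying how much of it was medulla or cortex, so the share of medulla may differ between arrays and was not measured. Fewer cells of a type cannot be told apart from less RNA per cell.

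Cells of the renal medulla live in fluid made hypertonic by salt and urea, and they balance it by storing small organic solutes. Nfat5, also called TonEBP, is the transcription factor that is activated by hypertonicity and switches on genes for osmolyte uptake and synthesis. Slc6a12 takes up betaine, Slc5a3 takes up myo-inositol, Akr1b1 is aldose reductase and makes sorbitol from glucose, and the urea transporters Slc14a2 (UT-A) and Slc14a1 (UT-B) move urea across the collecting duct, the thin limb, the vasa recta and the red cell.

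The sequences of 6 probes are shown to give the stretch that each one reads. The first pair reads different stretches of Nfat5, and the second pair is assigned to different variants of Slc14a2. Whether each Slc14a2 probe reads its own variant alone was not checked. The last sequences belong to the most variable osmolyte gene and to the gene that stayed at background. All probes were 60 bases long, and only the first 30 bases are printed where a probe may lie outside the coding sequence. They are written 5' to 3' in lower case as the array files give them, with no part marked.
Nfat5 A_42_P555795, first 30 bases: tgactccttgtatctagtgaatgtacctgt
Nfat5 A_43_P21944: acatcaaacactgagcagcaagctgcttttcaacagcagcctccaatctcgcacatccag
Slc14a2 A_43_P12032, first 30 bases: tctggtaaggagtgaccttttccaacatcc
Slc14a2 A_64_P074029, first 30 bases: tgcccagatctttataacaaccccttgtag
Akr1b1 A_42_P784448: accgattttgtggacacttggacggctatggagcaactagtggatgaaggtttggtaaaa
Slc14a1 A_64_P340820: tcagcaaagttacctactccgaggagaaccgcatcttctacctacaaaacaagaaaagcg

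Positions are those of the array files on the rat build rn4. The Nfat5 probe A_42_P555795 lies at chr19:37241692-37241751 on the plus strand, from base 13056 of the transcript, and A_43_P21944 lies at chr19:37231479-37231538, 8686 bases nearer to the transcript's start. The Slc14a2 probes lie on the minus strand. A_43_P12032, at chr18:75071462-75071521, begins at base 3859 of transcript variant 1. A_64_P074029, at chr18:75109819-75109878, begins at base 1919 of variant 2 and is 38357 bases upstream of the first. The Akr1b1 probe is placed at chr4:61652419-61652766 on the minus strand, a stretch of 348 bases for a probe of 60. The Slc14a1 probe lies at chr18:75024334-75024393 on the minus strand, the Slc6a12 probe at chr4:157799589-157799648 on the plus strand and the Slc5a3 probe at chr11:32065650-32065709 on the plus strand. For all 8 probes the gene symbol was unchanged in the current RefSeq name table.

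Between 65.59% and 74.26% of the gene spots of an array were well above background, and arrays of the same group correlated with a Pearson's r of 0.965 to 0.997 over all tested probes. Markers of kidney tubules were bright on all arrays: Umod of the thick ascending limb had a log2 intensity of 18.25 ± 0.32 (SD, n = 5) in NP and 18.39 ± 0.32 (SD, n = 4) in MSC, and Aqp2, the water channel of the collecting duct, had 18.10 ± 0.07 and 18.22 ± 0.27. The arrays came from 2 slides. Slide 1 held NP 1, NP 2, NP 3, MSC 1 and MSC 2, and slide 2 held NP 4, NP 5, MSC 3 and MSC 4.

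None of the 6 tested probes differed between MSC and NP kidneys beyond the spread between kidneys. By limma, with the Benjamini-Hochberg false discovery rate (FDR) taken over the 15836 probes, 0 of the 6 had an FDR under 0.05, as did 0% of all probes. At an unadjusted p under 0.05 the count was also 0 of 6, whereas 11.6% of all probes, 1839, passed (6.49% higher and 5.12% lower in MSC). The estimate was above 0 for 1 probe, that of Akr1b1, and below 0 for 5. The median log2 fold change (MSC minus NP) of the 6 probes was -0.15, and that of all tested probes was -0.0048. The groups overlapped for all 6, whereas every MSC array was above every NP array for 3.12% of all probes and below for 2.13%.

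**Figure D1:**
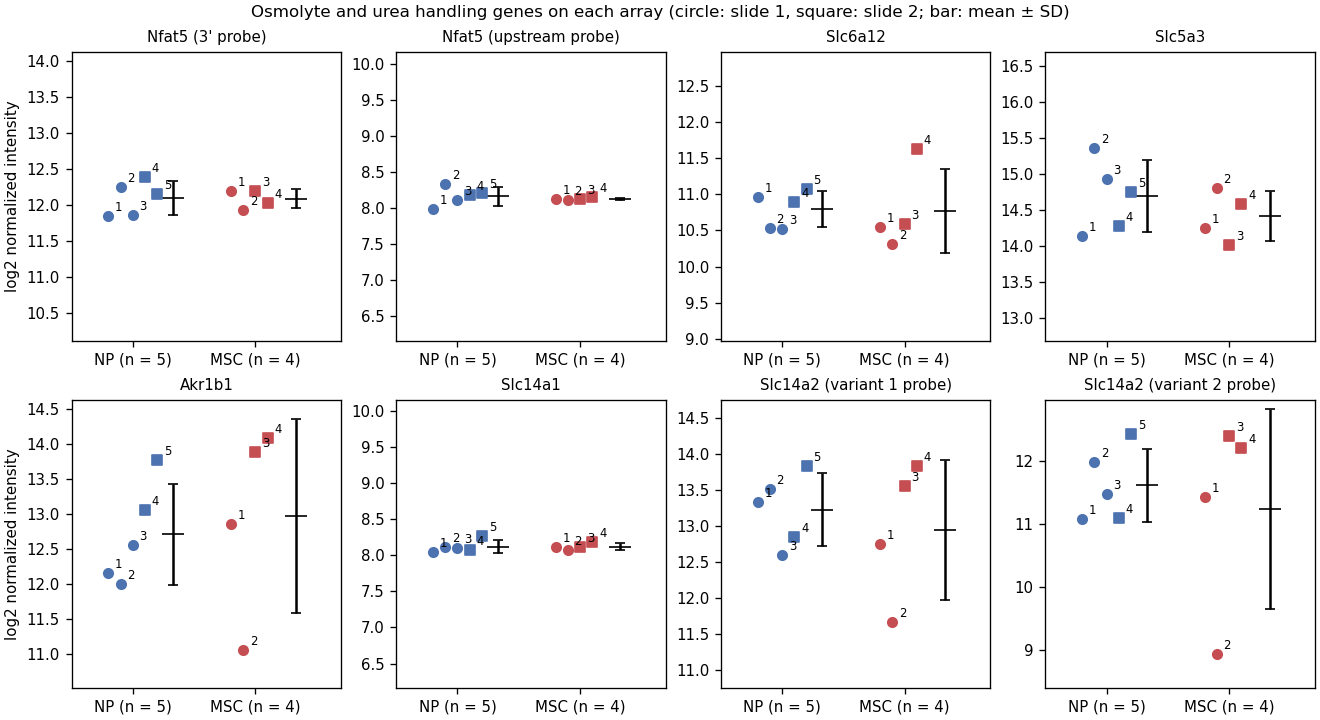
Log2 normalized intensity of the 8 probes on each array, for NP (blue, n = 5) and MSC (red, n = 4), with the replicate number beside each point and the mean ± SD as a bar; circles are slide 1 and squares slide 2, and each panel has its own axis. The groups overlap in every panel, and MSC 2 lies lowest for Akr1b1 (11.06) and for both Slc14a2 probes (11.67 and 8.93).

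Nfat5, the regulator, was level across the groups. With the probe A_42_P555795, the log2 intensity was 11.85, 12.25, 11.87, 12.39 and 12.15 in NP 1 to NP 5, and 12.20, 11.93, 12.20 and 12.03 in MSC 1 to MSC 4. All MSC values fell inside the NP range. The means were 12.10 ± 0.24 (SD, n = 5) in NP and 12.09 ± 0.13 (SD, n = 4) in MSC, and the log2 fold change was -0.01 (limma SE 0.13, FDR 0.981; exact two-sided permutation p = 0.952). The 95% confidence interval ran from -0.29 to 0.27, that is from 0.815 to 1.21-fold. The SD of this probe within groups was larger than that of 59.6% of the tested probes, so it was of ordinary variability.

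The upstream Nfat5 probe A_43_P21944 gave no usable level. It was at 7.98, 8.34, 8.11, 8.18 and 8.20 in NP and at 8.13, 8.11, 8.12 and 8.15 in MSC, and it was well above background on 3 of 5 NP and 1 of 4 MSC arrays. It was not bright enough for the test, so no fold is given, and the exact two-sided permutation test of its log2 values gave p = 0.603. The statement on Nfat5 thus rests on the probe near the 3' end of the transcript alone.

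Slc6a12, the betaine transporter, had 1 high array. The log2 intensity was 10.96, 10.54, 10.53, 10.89 and 11.07 in NP and 10.54, 10.32, 10.58 and 11.63 in MSC. MSC 4 was above all NP kidneys, MSC 2 was below all of them, and the other 2 MSC kidneys lay inside the NP range. The means were 10.80 ± 0.25 and 10.77 ± 0.59, with a log2 fold change of -0.03 (limma SE 0.25, 95% interval -0.58 to 0.52, FDR 0.971; exact permutation p = 0.929). Without the high array MSC 4 the estimate was -0.32 (limma unadjusted p = 0.0635, FDR 0.578).

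Slc5a3, the myo-inositol transporter, was at 14.14, 15.36, 14.93, 14.28 and 14.74 in NP and at 14.25, 14.80, 14.01 and 14.59 in MSC. NP 2 was the highest of the 9 kidneys and MSC 3 the lowest, and the groups overlapped between 14.14 and 14.80. The means were 14.69 ± 0.50 and 14.41 ± 0.35, and the log2 fold change was -0.28 (limma SE 0.25, 95% interval -0.85 to 0.29, FDR 0.690; exact permutation p = 0.373). Slc5a3 was lower in MSC on both slides, by -0.28 on slide 1 and -0.21 on slide 2, and its estimate stayed below 0 under all 26 alternatives run, arrays left out included (-0.42 to -0.11). These alternatives reuse the same arrays, and the estimate moved to -0.11 without NP 2 and to -0.14 without MSC 3. No alternative reached an FDR under 0.05.

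Akr1b1, the enzyme of sorbitol synthesis, varied widely within both groups. Its log2 intensity was 12.15, 12.00, 12.56, 13.05 and 13.77 in NP and 12.85, 11.06, 13.89 and 14.09 in MSC. MSC 3 and MSC 4 were above all NP kidneys and MSC 2 was below all of them. The range over the 9 kidneys was 3.03 on the log2 scale, or 8.19-fold, and the SD within groups, 1.06, was exceeded by 53 of the 15836 probes. Against this spread the means of 12.71 ± 0.72 in NP and 12.97 ± 1.39 in MSC could not be told apart. The log2 fold change was 0.26 (limma SE 0.60, FDR 0.893; exact permutation p = 0.698), and its 95% interval, -1.07 to 1.60, spans from 0.476 to 3.03-fold. The estimate was -0.04 without MSC 3 and -0.11 without MSC 4, and -0.34 with arrays weighted by their quality.

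Slc14a2, the urea transporter of the collecting duct and the thin limb, was read by both of its probes as variable rather than different. The variant 1 probe was at 13.33, 13.52, 12.60, 12.84 and 13.84 in NP and at 12.74, 11.67, 13.55 and 13.83 in MSC. The variant 2 probe was at 11.09, 11.99, 11.48, 11.10 and 12.44 in NP and at 11.43, 8.93, 12.41 and 12.21 in MSC. On both probes MSC 2 was below every other kidney and the other 3 MSC kidneys lay inside the NP range.

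For the variant 1 probe the means were 13.22 ± 0.50 and 12.95 ± 0.97, and the log2 fold change was -0.28 (limma SE 0.42, 95% interval -1.22 to 0.66, FDR 0.83; exact permutation p = 0.611). For the variant 2 probe they were 11.62 ± 0.59 and 11.24 ± 1.60, and the log2 fold change was -0.37 (limma SE 0.64, 95% interval -1.81 to 1.06, FDR 0.853; exact permutation p = 0.770). The estimates of the probes differed by much less than either standard error. The variant 2 probe ranged 11.4-fold over the 9 kidneys and its SD within groups, 1.14, was exceeded by 30 of the tested probes. The variant 1 probe ranged 4.50-fold, and 209 probes had a larger SD.

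**Figure D2:**
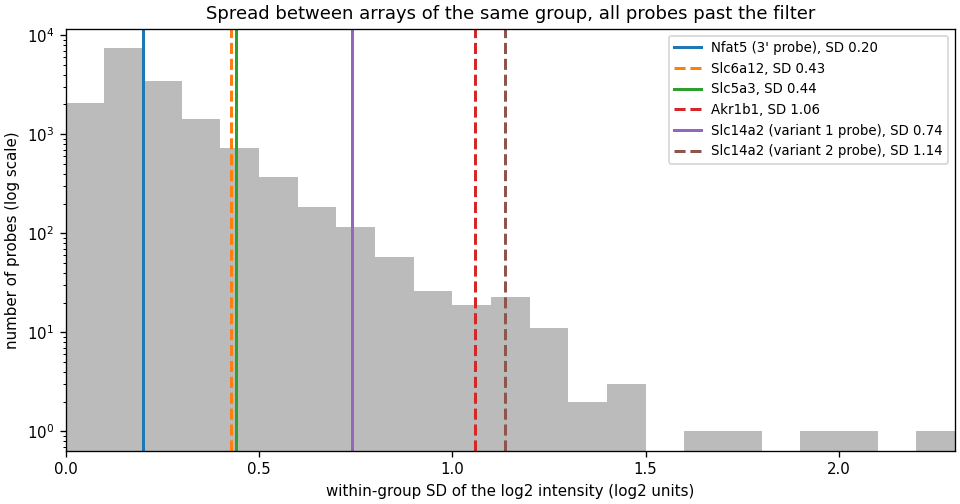
Histogram of the SD of the log2 intensity within groups for the 15836 tested probes (number of probes on a log axis), with a line for each tested probe of the 6 genes. Nfat5 lies at 0.20, near the median of 0.17, whereas Akr1b1 (1.06) and the Slc14a2 variant 2 probe (1.14) lie past the 99th percentile of 0.79.

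Slc14a1, the urea transporter of the vasa recta and the red cell, stayed at background. Its log2 intensity was 8.04, 8.11, 8.09, 8.07 and 8.27 in NP and 8.12, 8.07, 8.11 and 8.18 in MSC, and it was well above background on 2 of 5 NP and 1 of 4 MSC arrays. The 9 values were within 0.23 of each other, and the exact permutation test of the log2 values gave p = 0.952. A difference in Slc14a1 was not detectable with this probe, which does not show that the transcript was absent or equal. When no filter on dim probes was applied, 0 of the 8 probes of the 6 genes had an unadjusted p under 0.05 by limma.

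The array MSC 2 was the lowest of the 9 arrays on 4 of the 6 tested probes: Slc6a12, Akr1b1 and both probes of the gene Slc14a2. It was the lowest on 7.28% of all tested probes. In the pathway lists described below, it was the lowest on 3 of the 12 probes of osmolyte enzymes and 0 of 5 of osmolyte transporters. The counts were 1 of 11 for tonicity response and Nfat5 partners and 0 of 7 for urea and arginine enzymes. The value of MSC 2 was 3.97-fold below the mean of the other 8 arrays for Akr1b1, 3.06-fold below for the Slc14a2 variant 1 probe and 7.14-fold below for the variant 2 probe, but 1.44-fold below for Slc6a12 and 1.14-fold below for Nfat5. The variant 2 probe was dim on MSC 2, at 8.93 beside 8.07 for the Slc14a1 probe at background. No background was subtracted, so the size of the variant 2 fold is uncertain. Slc5a3 was not low on this array, where it ranked 7 from the lowest. No group of values was uneven enough to single out an array by Dixon's ratio in any of the 12 tests (6 probes in 2 groups).

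Leaving out each array in turn was planned, and MSC 2 was singled out after its values were seen. Without it the direction of the estimate turned for 4 of the 6 probes. The log2 fold change of Akr1b1 became 0.90 (limma SE 0.42, 95% interval -0.06 to 1.86, FDR 0.579). Those of the Slc14a2 probes became 0.15 (variant 1, FDR 0.894) and 0.40 (variant 2, FDR 0.715), and those of Slc6a12 and Nfat5 became 0.12 and 0.04. Slc5a3 was then at -0.41. No probe passed the FDR threshold or an unadjusted p under 0.05, and the median of the 6 moved from -0.15 to 0.13.

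**Figure D3:**
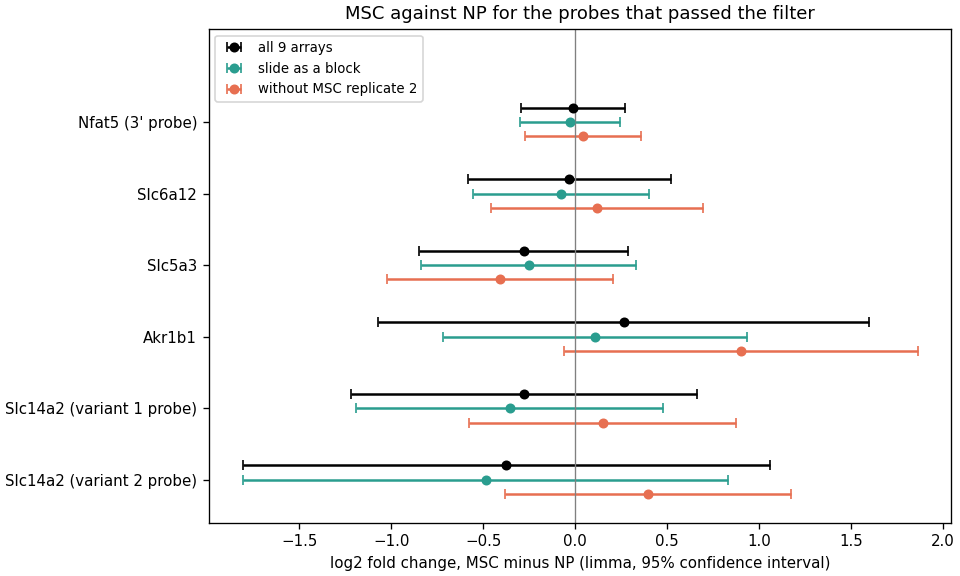
Log2 fold change (MSC minus NP) of the 6 tested probes with its 95% confidence interval by limma, over all 9 arrays (black), with the slide as a block (green) and without MSC 2 (orange). Every interval includes 0, and without MSC 2 the Akr1b1 estimate moves from 0.26 to 0.90 and the Slc14a2 estimates move from below to above 0.

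The Akr1b1 values also lay apart by slide, without passing the FDR threshold. The 4 arrays of slide 2 lay between 13.05 and 14.09 and the 5 arrays of slide 1 between 11.06 and 12.85, with no overlap. Of all tested probes, 3.29% were likewise higher on every slide 2 array, and 3.08% were lower. In the planned limma fit with group and slide, whose slide term was read after the data were seen, slide 2 was 1.56 higher on the log2 scale (SE 0.36, unadjusted p = 0.00217, FDR 0.123), and 0.0947% of all probes had an FDR under 0.05 for the slide. Akr1b1 was the 1 probe of the 6 with an unadjusted p under 0.05 for the slide, where 7.1% of all probes were higher and 6.63% lower on slide 2. The slide difference was 0.78 and 1.11 for the Slc14a2 probes, 0.47 for Slc6a12, 0.18 for Nfat5 and -0.27 for Slc5a3, all with an FDR of 0.368 or more. A slide is the glass that carries the arrays, and the files do not say whether kidneys were also taken or extracted in 2 rounds.

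Within the slides, the difference between MSC and NP ran in opposite directions for 5 of the 6 probes. For Akr1b1 it was -0.29 on slide 1 and 0.58 on slide 2. For Slc14a2 it was -0.94 and 0.35 with the variant 1 probe and -1.34 and 0.54 with the variant 2 probe. It was -0.25 and 0.12 for Slc6a12 and 0.08 and -0.16 for Nfat5. Slide 1 holds MSC 2, and each slide has only 2 MSC arrays, so the difference between slides in these values was not tested. With the slide as a block the estimates were 0.11 for Akr1b1, -0.36 and -0.49 for Slc14a2, -0.08 for Slc6a12, -0.25 for Slc5a3 and -0.03 for Nfat5, and the lowest FDR was 0.714.

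The genes varied together only in part. Over the 9 arrays and 15 pairs of probes, also correlated after the data were seen, the Slc14a2 probes had a Pearson's r of 0.906 (exact permutation p = 0.00229, Benjamini-Hochberg adjusted 0.0344) and a Spearman's rho of 0.817 (exact p = 0.0108, adjusted 0.104). Without the 2 arrays farthest from the median of the variant 1 probe, MSC 2 and NP 3, r was 0.802. Akr1b1 and the Slc14a2 variant 2 probe had an r of 0.819 (exact p = 0.0049, adjusted 0.0368) and a rho of 0.70 (exact p = 0.0433, adjusted 0.151), and r fell to 0.607 without MSC 2 and MSC 4.

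Akr1b1 and the Slc14a2 variant 1 probe had an r of 0.741 (exact p = 0.0203, adjusted 0.101), which dropped to 0.328 without the same 2 arrays and so rests on them. Slc6a12 had an r of 0.663 with Akr1b1 and 0.678 with the variant 1 probe, each with an adjusted exact permutation p of 0.144. Pairs with Nfat5 had an r between -0.09 and 0.37, and pairs of Slc5a3 with the other osmolyte and urea genes an r between -0.39 and -0.06, none past the threshold. After the mean of each slide was taken out, also a later choice, r was 0.870 for the Slc14a2 probes, 0.817 for Akr1b1 with the variant 2 probe and 0.607 with the variant 1 probe. In the exact permutation test over the orders within slides, p was 0.0191, 0.0347 and 0.134, and the adjusted values over the 15 pairs were 0.260, 0.260 and 0.501, so that no pair passed within slides. Without MSC 2 the same r were 0.682, 0.487 and 0.104.

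For each gene the 3 probes with the most similar profile among the 15834 tested probes with a value on every array were looked up by Pearson's r over the 9 arrays, as a description without a test. Nfat5 was closest to Sparc (0.94), Cdyl2 (0.92) and Lats2 (0.92). Slc6a12 was closest to Arid1a (0.95), Tpd52l1 (0.94) and Gal3st1 (0.93). Slc5a3 was closest to Fnip2 (0.96), Vmac (0.96) and the clock gene Cry2 (0.96).

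Akr1b1 was closest to a probe without a gene name, A_44_P387025 (0.97), to Mkl1 (0.96) and to Ptplad2, now Hacd4 (0.96). The variant 2 probe of Slc14a2 was closest to the interferon-induced gene Mx1 (0.97), to the transcription factor Elf5 (0.97) and to S100a4 (0.96). These are the highest of a large number of values over only 9 arrays, which share slides and, for Akr1b1 and Slc14a2, the low MSC 2. Without the 2 arrays farthest from the member's median, the r of Slc14a2 with Elf5 was 0.826 and with Mx1 0.963.

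The marker lists of the cell types were set beside these values. The sum of the thin limb markers (5 of 6 genes past the filter) was 17.25 to 17.52 in MSC and 16.87 to 17.37 in NP on the log2 scale, and this sum follows Aqp1 (16.72 to 17.36), which the proximal tubule also expresses. The sum of the principal cell markers (8 of 8 genes) was 18.77 to 19.35 in MSC and 18.66 to 18.91 in NP. In MSC 2 the mean deviation from the 9 arrays was -0.35 for thin limb, -0.15 for principal cell, -0.28 for endothelium, 0.19 for thick ascending limb and 0.14 for proximal tubule markers, against -1.02 for the 6 probes of the osmolyte and urea genes. For red cell markers it was 0.51, for fat markers 0.21 and for stromal cell markers -0.28. MSC 2 was the lowest array for 2 of 6 thin limb probes, Slc4a11 (10.92) among them, and for 1 of 10 principal cell probes, Fxyd4 (14.84). It was above all NP arrays for 2 of the 10 principal cell probes, the sodium channel subunits Scnn1b (11.89) and Scnn1g (12.57), for 4 of 9 thick ascending limb probes and for 5 of 12 proximal tubule probes, and for 14.7% of all tested probes. These markers were named after their values were seen. Their part in the low values of Akr1b1 and Slc14a2 was not tested.

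By unadjusted p under 0.05, the counts of marker probes higher and lower in MSC were 3 and 0 of 12 for proximal tubule, 1 and 0 of 6 for thin limb, 2 and 0 of 9 for thick ascending limb, 3 and 0 of 10 for principal cells and 0 and 0 of 6 for endothelium, with medians from 0.08 to 0.15, where 6.49% of all probes were higher and 5.12% lower. Without MSC 2, when 4.96% of all probes were higher and 3.8% lower, they were 2 and 0 for proximal tubule, 1 and 0 for thin limb, 0 and 1 for thick ascending limb, 5 and 0 for principal cells and 2 and 0 for endothelium. With each array left out in turn, the median ran from 0.06 (without NP 1) to 0.20 (without NP 4) for proximal tubule and from -0.04 (without NP 3) to 0.24 (without MSC 2) for thin limb. It ran from 0.03 (without MSC 4) to 0.22 (without MSC 3) for thick ascending limb, from 0.08 (without MSC 4) to 0.26 (without MSC 2) for principal cells and from -0.03 (without MSC 4) to 0.27 (without MSC 2) for endothelium. The 1 higher thin limb probe was lost without NP 1, NP 2, NP 3, MSC 1, MSC 3 or MSC 4, and the 2 higher thick ascending limb probes without NP 3, MSC 2 or MSC 4. Over all 9 arrays the counts for red cells were 0 and 6 of 10 with a median of -1.14, and the summed level was 17.11 to 20.23 in MSC and 19.91 to 20.44 in NP. Stromal cell markers had 2 and 0 of 7 (median 0.49; summed level 15.10 to 16.12 in MSC and 14.68 to 16.06 in NP) and fat markers 2 and 0 of 5 (median 1.23; 13.11 to 15.78 in MSC and 13.05 to 13.73 in NP). Red cells express Slc14a1, whose probe was at background in both groups. Without MSC 2 the counts were 0 and 8 for red cells (8 also without MSC 4), 4 and 0 for stromal cells and 2 and 0 for fat (4 without MSC 1). The red cell median ran from -1.57 without MSC 2 to -0.53 without MSC 1, and the count of 6 fell to 1 without NP 1, NP 4 or MSC 3, to 2 without MSC 1 and to 3 without NP 5. The fat median ran from 0.67 without MSC 3 to 1.83 without MSC 1, and Cfd was at -0.73 within slide 1 and 5.17 within slide 2 and Fabp4 at -0.31 and 2.93. Their part in the values of the osmolyte and urea genes was not tested. No marker probe had an FDR under 0.05 over the 9 arrays.

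**Figure D4:**
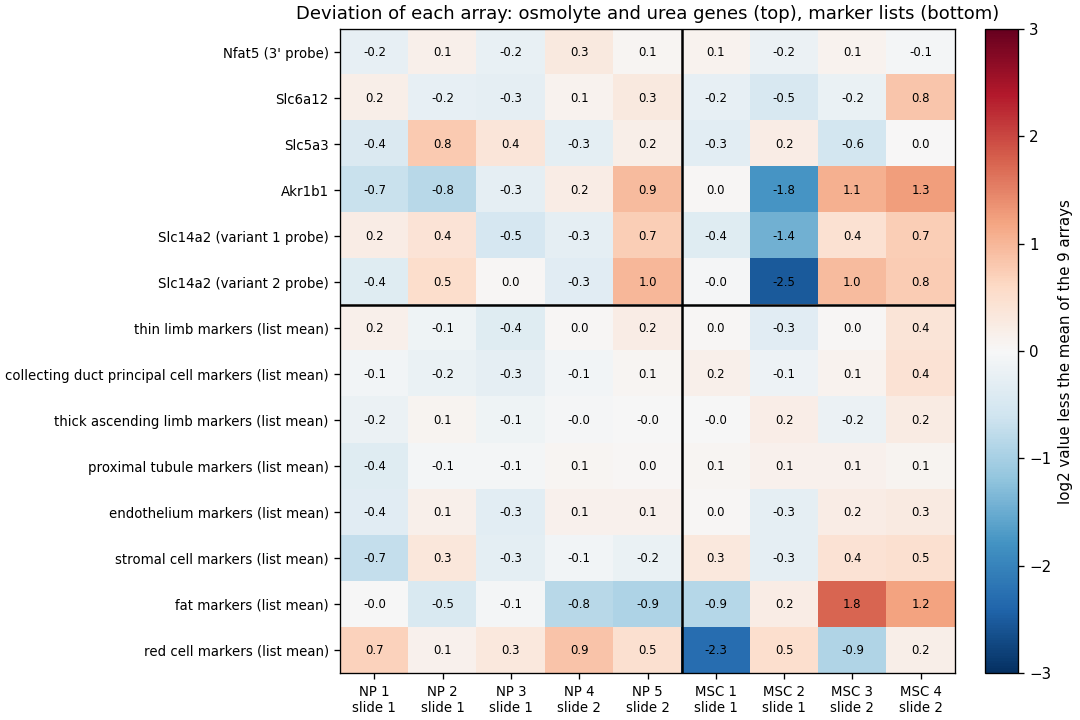
Deviation of each array from the mean of the 9 arrays (log2 units, colour and printed value), for the 6 tested probes above the line and for the mean of each marker list below it; NP arrays are left and MSC arrays right of the vertical line. MSC 2 is at -1.8 for Akr1b1 and at -1.4 and -2.5 for the Slc14a2 probes, and at -0.3 for the thin limb list and -0.1 for the principal cell list.

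The rest of the pathway was described with 4 lists of genes for osmolyte transport, osmolyte metabolism, the response to tonicity and urea and arginine metabolism. Of 37 genes listed, 36 were on the array and 33 had a probe past the filter, 35 probes in all. By limma 5 of the 35 were higher and 2 lower in MSC at an unadjusted p under 0.05, where the background was 6.49% and 5.12%, and none had an FDR under 0.05. Their median log2 fold change was 0.01. The count of 5 dropped to 2 without NP 3, MSC 2 or MSC 4 and to 3 without NP 1 or MSC 3, and the count of 2 dropped to 1 without NP 1, NP 4, MSC 2 or MSC 4.

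Among the osmolyte transporters (5 probes, 1 higher and 0 lower, median -0.04), the probes of Slc5a11, another inositol transporter, disagreed. With A_43_P16309 Slc5a11 was at 9.73, 9.64, 9.90, 9.93 and 10.20 in NP and at 10.30, 10.32, 10.36 and 10.31 in MSC, with every MSC kidney above every NP kidney, as for 3.12% of all tested probes (log2 fold change 0.44, limma SE 0.11, unadjusted p = 0.00249, FDR 0.334). With A_44_P292711 it was at 13.15 to 13.60 in NP and 13.11 to 13.41 in MSC (-0.09, limma FDR 0.753). Slc6a6, the taurine transporter, had a log2 fold change of -0.24 (SE 0.17) and Slc38a2, a transporter of neutral amino acids, 0.06 (SE 0.11).

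The osmolyte enzymes (12 probes, 1 higher and 1 lower, median 0.0018) included Pnpla6, which splits phosphatidylcholine towards glycerophosphocholine. Pnpla6 was at 12.00 to 12.21 in NP and 11.60 to 11.98 in MSC without overlap, as for 2.13% of all tested probes, with a log2 fold change of -0.27 (limma SE 0.09, unadjusted p = 0.0134, FDR 0.335). Aldh7a1, which makes betaine from its aldehyde, was at 17.30 to 17.62 in NP and 17.62 to 17.68 in MSC, where the lowest MSC value was just above the highest NP value (0.20, SE 0.08, unadjusted p = 0.0405, FDR 0.415 by limma). Gdpd5, a glycerophosphodiesterase, had -0.15 (SE 0.08) and an FDR of 0.509. The 1 higher probe of this list was lost with any array left out other than NP 4 or NP 5, and the 1 lower became 2 without NP 3.

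In the list of tonicity response and Nfat5 partners (11 probes, 3 higher and 0 lower, median 0.09), the stress gene Gadd45g was at 14.81, 14.53, 14.01, 14.82 and 15.05 in NP and at 14.94, 15.43, 15.30 and 15.35 in MSC. Only NP 5 reached into the MSC range (log2 fold change 0.61, limma SE 0.20, unadjusted p = 0.0116, FDR 0.334). Hspa1b, an inducible chaperone of the Hsp70 family, was at 13.04, 11.80, 11.72, 13.74 and 13.62 in NP and at 13.42, 14.21, 13.80 and 14.18 in MSC. NP 2 and NP 3 were the low arrays, and the log2 fold change of 1.12 (limma SE 0.44, unadjusted p = 0.0295, FDR 0.392) was 1.63 within slide 1 and 0.31 within slide 2.

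The near-identical copy Hspa1a had no probe by that name, so Hspa1b is uncertain as to which copy was read. Hspa4l, a chaperone of the Hsp110 family, had a log2 fold change of 0.27 (limma SE 0.11, unadjusted p = 0.0346, FDR 0.401). The count of 3 higher in this list fell to 1 without NP 3, MSC 2 or MSC 4 and to 2 without NP 1, NP 4 or MSC 3 and was 4 without NP 5, and its median ran from -0.0035 without MSC 2 to 0.24 without MSC 3. Without MSC 2 the share of all probes moved from 6.49% to 4.96% higher and from 5.12% to 3.8% lower.

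The urea and arginine enzymes (7 probes, 0 higher and 1 lower, median 0.01) were led by Agmat, which makes putrescine and urea from agmatine. Agmat was at 15.36 to 15.81 in NP and 15.09 to 15.46 in MSC, with a log2 fold change of -0.26 (limma SE 0.11, unadjusted p = 0.0432, FDR 0.419). The 1 lower probe was lost without NP 1, NP 3, NP 4, MSC 2 or MSC 4. The probes of Gatm, which makes the creatine precursor guanidinoacetate, had 0.26 (SE 0.22) and 0.01 (SE 0.18). Cps1 and Otc, the mitochondrial enzymes of the liver's urea cycle, were below the filter.

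**Figure D5:**
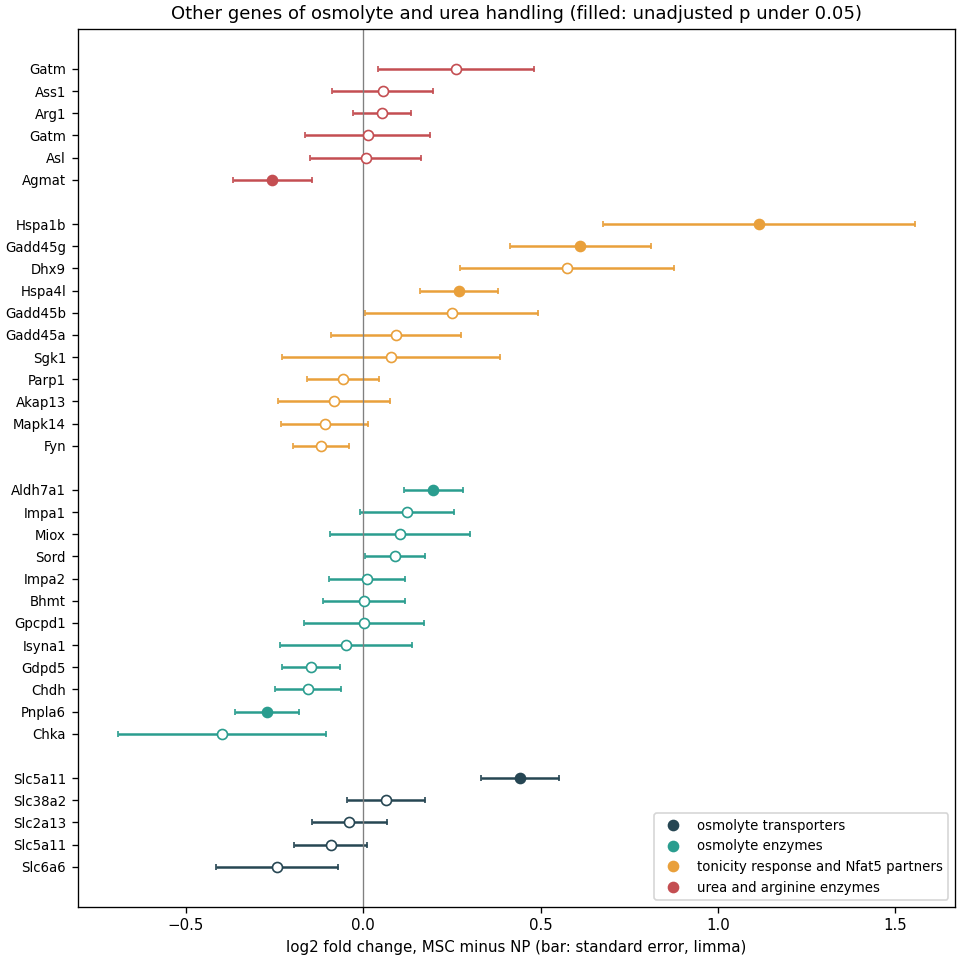
Log2 fold change (MSC minus NP) with its standard error by limma for 34 probes of the 4 pathway lists, coloured by list; filled points have an unadjusted p under 0.05. Hspa1b (1.12), Gadd45g (0.61), Slc5a11 (0.44), Hspa4l (0.27) and Aldh7a1 (0.20) are the filled points above 0, and Pnpla6 (-0.27) and Agmat (-0.26) those below.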

How the data were processed

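The members and gene lists were chosen with earlier results of these data known. The deposited intensity values were read from the scans with Agilent Feature Extraction (10.7.3.1, rn4 probe positions), and the mean pixel intensity used here has no background subtracted. The authors' own deposited table of log2 values, already normalized, correlated with the values used here with an r of 0.999899 to 0.999973 per array. After removal of outlier spots, cyclic loess was run on the log2 intensities to bring the arrays to a common scale, and the spots of a probe were averaged. A probe was tested when, on 4 or more arrays, it exceeded the 95th percentile of the negative control spots (log2 scale) multiplied by 1.1, so that a gene confined to few arrays could be missed. Probes were kept separate and not collapsed to genes.

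Differences between MSC and NP were tested with limma 3.58.1 in R 4.3.3 without covariates, at an FDR of 0.05 over all tested probes. Each probe of the 6 genes was also given an exact two-sided permutation test, which enumerates the 126 ways to divide the arrays into groups of the observed sizes. The scripts were tested on simulated data. The labels name renal tissue by replicate number and not the animals, and the methods of the study describe removal of the left kidney. The p-values measure the spread between these kidneys, and the number of arrays limits the precision. The 3 genes with the smallest p in each pathway list are named, except for 1 gene that is not reported here, with the 3 most similar profiles for each member. Alternatives changed the normalization, signal column, background correction, filter, probe summary, variance model, block and arrays. All sample columns could be matched to a sample (0 unmatched), and an MSC array that the authors discarded was not analysed here.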

Additional observations from a re-analysis of the deposited data

How the results depend on the processing

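Over 26 alternatives, 0 of the tested probes of the 6 genes passed an FDR or an unadjusted p of 0.05 by limma in either direction. Over all probes 2 passed the FDR with array weights and 0 in the other alternatives. The pathway count of 5 higher was 3 with scaling to the 75th percentile, 2 with array weights and 7 with the replicate block, and 2 to 6 with an array left out. The count of 2 lower was 1 with scaling to the 75th percentile or the median and 3 with array weights, and 1 to 2 with an array left out. The Slc6a12 estimate turned to 0.00 (0.00305) with quantile normalization, and that of Akr1b1 to -0.34 with array weights. With array weights Slc6a12 was at -0.21 and Slc14a2 at -0.44 (variant 1) and -0.64 (variant 2). The variant 2 estimate was -0.63 with the processed signal and -0.51 with normexp background correction. With the replicate block, Akr1b1 was at 0.53 and Slc14a2 at -0.12 (variant 1) and -0.17 (variant 2). With an array left out, the log2 fold changes ran from -0.074 to 0.062 for Nfat5, -0.32 to 0.12 for Slc6a12, -0.42 to -0.11 for Slc5a3, -0.11 to 0.90 for Akr1b1 (below 0 without MSC 3 or MSC 4), and -0.57 to 0.15 (variant 1) and -0.76 to 0.40 (variant 2) for Slc14a2. The Nfat5 estimate was above 0 without NP 2, NP 4, NP 5, MSC 2 or MSC 4, and Slc6a12 without NP 1, NP 5, MSC 1, MSC 2 or MSC 3. The FDR over all alternatives was 0.403 or more. The cause of these shifts was not tested, other than that fewer arrays were used.

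Whether the replicate numbers pair the arrays could not be decided from so few pairs. Deviations of NP and MSC arrays with the same number correlated with an r of 0.197, 0.319, -0.352 and 0.0473, and 2 of 4 matched their own number best. NP 3 and MSC 3, the pair with the negative r, lay on different slides. The fit with the replicate number as a block draws nothing from NP 5, which has no partner, so its estimates equal those without NP 5: 0.00165 for Nfat5 and 0.0379 for Slc6a12, both above 0. The pathway counts were 7 higher and 2 lower with the block and 6 and 2 without NP 5 alone, and no tested probe of the 6 genes passed. Dim signal limits Slc14a1 and the upstream Nfat5 probe, and the spread between kidneys limits Akr1b1 and Slc14a2.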

Other observations

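RefSeq promoter windows (GRCr8, 250 bases before to 50 after the start) were found for 4 of the 6 genes, with 5 windows in all. Akr1b1 and Nfat5 had no window and were not searched. The letters TGGAAA, searched on both strands, were in 0 of the 5 and in 22.7% of all 33469 windows. With 5 windows and such a share, a count of 0 says little, and sites outside the windows were not searched.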
